A study of Mus musculus with 22 samples.

Results

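Gene expression in the mouse retina and choroid was compared 14 days after laser burns that induce choroidal neovascularisation, abbreviated CNV, in which choroidal vessels grow toward the retina, with that of eyes labelled as having no CNV. The libraries were chosen by their titles: 4 wild-type day 14 CNV libraries and 4 wild-type control libraries, which are 8 of the 22 in the series. All 8 come from adult wild-type C57BL/6J mice, from the retina and choroid taken as 1 piece of tissue. The day 14 eyes had been treated by laser photocoagulation, and the controls are described as normal and of matching age. Wild-type CNV libraries of days 3 and 7, 4 each, set day 14 in time. The labels do not tie a library to a single animal, and the number of burns per eye is not given in the sources used here, so p-values measure only the spread between these libraries. A laser burn breaks Bruch's membrane, the sheet between the retinal pigment epithelium and the choroid.

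After such a burn, microglia and blood-borne macrophages gather at the lesion, vessels sprout from the choroid, and a scar forms as the vessels later regress. Müller glia, the support cells that span the retina, switch on Gfap and other genes of reactive gliosis. Injured photoreceptors release signals such as endothelin 2, to which the glia respond. In bulk tissue, fewer cells of a type and less RNA per cell cannot be told apart.

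The 8 libraries held 15033983 to 16584354 counts. Markers of the pigment epithelium and of vessels were present in control replicates 1 to 4. On the CPM scale (counts scaled to a common library size), Rpe65, the isomerase of the pigment epithelium, was at 239, 168, 279.5 and 200.3 CPM and Pecam1, a marker of endothelium, at 6.99, 6.89, 9.21 and 9.16 CPM. Day 14 replicate 1 stood apart. A list of 24 lens genes took 14.7% of its counts, against 0.0902% to 2.61% in the other day 14 libraries and 0.0278% to 1.62% in the controls, and 21 rod genes took 1.67%, against 6.54% to 7.23% and 7.41% to 8.18%. Control replicate 4 carries the title of a control and the treatment tag of a laser-treated eye, and its Edn2 and Gfap levels lay within the range of the other 3 controls. A list of endothelial genes took 0.045% of its counts, against 0.0301% to 0.0341% in the other 3 controls. Its shares of lens and cornea genes were the lowest of the controls. These values do not decide which label is right. The numbers of calls and the values of Edn2 are therefore given with and without these 2 libraries. For most other genes and for the gene lists, the alternative given leaves out day 14 replicate 1 only. Their values without control replicate 4 are not given. Lens genes are not part of the tissue named in the labels; their part in the results below was not tested beyond the fits that left out day 14 replicate 1 or carried scores of lens and cornea genes.

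**Figure D1:**
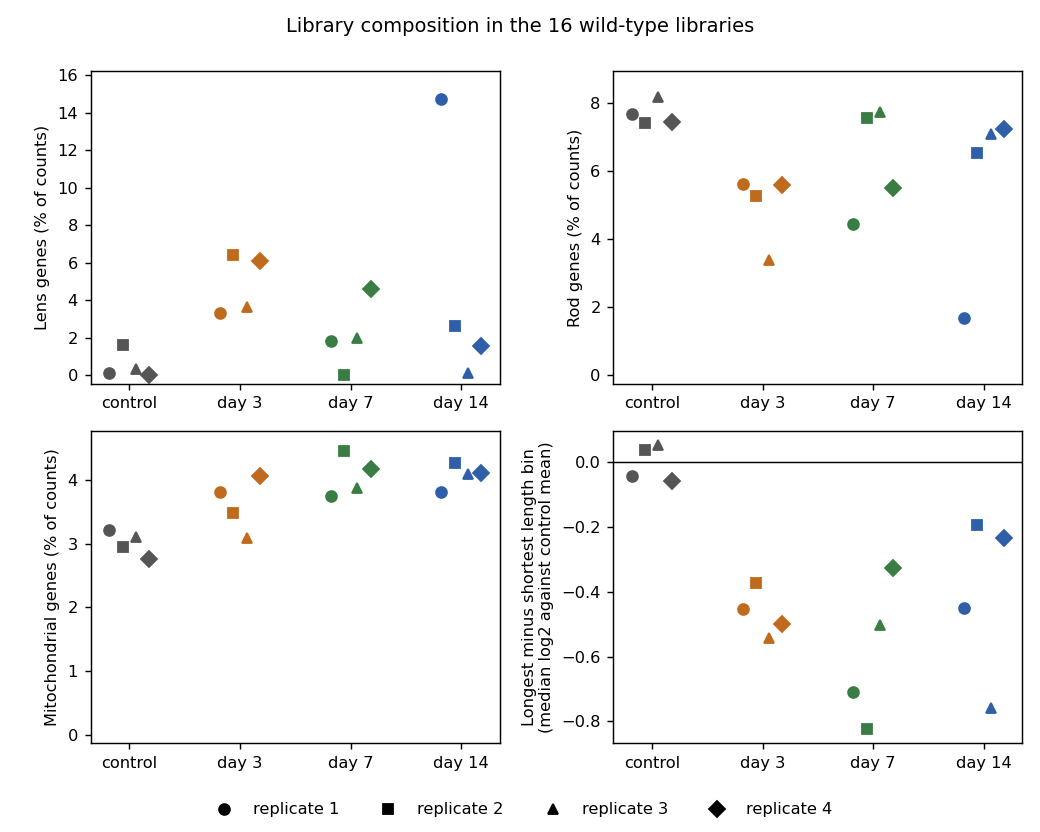
Share of counts taken by lens, rod and mitochondrial genes (%), and the difference between the longest and the shortest of 10 length bins of genes in their median log2 CPM against the control mean, in the 16 wild-type libraries; each point is 1 library and its shape gives the replicate number. Day 14 replicate 1 lies at 14.7% lens and 1.67% rod counts, and the mitochondrial share is 3.82% to 4.27% in the day 14 libraries against 2.76% to 3.22% in the controls.

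With all 16 wild-type libraries in edgeR's quasi-likelihood fit, 51 of 18657 tested genes (0.273%) differed between day 14 and control at a Benjamini-Hochberg adjusted p under 0.05, called here. Of these, 6 were higher at day 14 (0.0322%) and 45 were lower (0.241%), and the day 14 and control libraries did not overlap in any of the 51. Over all tested genes, the 4 day 14 libraries lay above all 4 controls in 1261 genes (6.76%) and below all 4 in 2381 (12.8%). An unadjusted p under 0.05 was reached by 4625 genes. The number of calls depended on single libraries: without day 14 replicate 1 it was 78 of 18919 (0.412%), of which 33 were among the 51. Without control replicate 4 it was 1 of 18959 (0.00527%), and with both left out of the fit across time points it was 0. Each of the 51 kept its direction in all 23 alternative settings. As the groups did not overlap in any of them, refitting the same counts could hardly reverse a direction, and nothing is read from this. A fit of the control and day 14 libraries alone called 1 of 17722 genes, Edn2. The same fit without day 14 replicate 1, of 7 libraries, called 577 of 17952 genes (3.21%), 171 higher (0.953%) and 406 lower (2.26%), with all 51 among them. This 7-library fit was chosen after the data had been seen, and its calls without control replicate 4 as well came down to 1 gene, Edn2 (0.00561%). Leaving out any other control also cut the calls, to 4, 3 and 1 (control replicates 1, 2 and 3), as did leaving out day 14 replicate 3 (to 3), whereas they came to 116 and 159 without day 14 replicates 2 and 4.

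The gene with the largest rise among those called was Edn2, which encodes endothelin 2, a vasoactive peptide that stressed photoreceptors make and that acts on endothelin receptors of Müller glia. Edn2 (chromosome 4, 120161206 to 120167360, plus strand on mm10) was at 5.38, 5.97, 4.07 and 4.68 CPM in control replicates 1 to 4 and at 57.8, 52.2, 41.2 and 30.6 CPM in day 14 replicates 1 to 4. The lowest day 14 library was thus well above the highest control, and the library labelled control replicate 4 lay with the other controls. The log2 fold change was 3.17 ± 0.35 (SE; edgeR adjusted p = 0.0034), and 3.06 ± 0.38 without day 14 replicate 1 (adjusted p = 0.0232). Over 23 alternative settings it ranged from 2.84 to 3.48, with adjusted p from 1.25e-16 to 0.0661, the highest value being that of the fit without both libraries in doubt. Edn2 was the only gene still called both without day 14 replicate 1 and without control replicate 4. Its mean was higher still at day 3 (128 ± 48.5 CPM, SD, n = 4) and day 7 (84.4 ± 31.9 CPM), and at day 14 it was 45.4 ± 12.03 CPM. Against day 3, the log2 difference was -1.49 with all libraries (edgeR adjusted p = 0.193), which did not pass the test, and -1.62 without day 14 replicate 1 (adjusted p = 0.0233). Apart from Edn2, Tnip2 and, for each gene list, its 3 members of smallest p, the genes named below were chosen after their values were seen.

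The 250 bases before the start of 3 of the genes described here are given because their genes differed in direction: Edn2 was called higher and Hcfc1, a cofactor of transcription, lower, and Trem2, a receptor of microglia and macrophages, lay above every control at day 14. They are RefSeq windows on GRCm38.p6, the assembly of mm10, whose starts are those of the deposited gene models: chr4:120160956-120161205 (plus strand), chr17:48346151-48346400 (plus strand) and chrX:73966358-73966607 (minus strand). Capitals mark matches on either strand to the letters of an AP-1 site (TGANTCA), a PU.1 site (GAGGAA), an ETS core (GGAAGT), an Sp1 box (GGGCGG) or a TATA box (TATAAA).
Edn2: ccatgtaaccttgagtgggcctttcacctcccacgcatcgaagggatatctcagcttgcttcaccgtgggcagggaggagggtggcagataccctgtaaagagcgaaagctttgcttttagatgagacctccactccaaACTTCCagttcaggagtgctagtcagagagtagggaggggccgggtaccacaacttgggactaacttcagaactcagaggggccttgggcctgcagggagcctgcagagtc
Trem2: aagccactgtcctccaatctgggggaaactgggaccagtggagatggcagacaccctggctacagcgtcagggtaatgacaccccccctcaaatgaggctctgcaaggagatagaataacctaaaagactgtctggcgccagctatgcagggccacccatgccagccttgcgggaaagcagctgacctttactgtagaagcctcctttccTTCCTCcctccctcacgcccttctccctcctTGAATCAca
Hcfc1: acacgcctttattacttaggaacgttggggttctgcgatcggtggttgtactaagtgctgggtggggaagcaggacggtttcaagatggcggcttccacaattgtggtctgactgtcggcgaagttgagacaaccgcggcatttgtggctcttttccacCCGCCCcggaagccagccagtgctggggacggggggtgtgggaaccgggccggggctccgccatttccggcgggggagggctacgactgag
The Edn2 window held 1 match, to the ETS core on the reverse strand, beginning 111 bases before the start. The Trem2 window held a PU.1 match on the reverse strand, 40 bases before the start, and an AP-1 match 9 bases before it. The Hcfc1 window held an Sp1 box on the reverse strand, 91 bases before the start. Of 32851 such windows, 19.7% hold the ETS core, 23.3% the PU.1 letters, 6.75% the AP-1 letters, 32.7% the Sp1 box and 12.4% the TATA letters. A match is a description of these letters and does not show that a factor binds.

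The other 5 genes called higher had smaller fold changes. Ly86 encodes MD-1, the partner of the B cell and macrophage surface receptor RP105. It was at 1.98, 1.11, 1.78 and 1.43 CPM in the controls and 7.08, 4.87, 4.23 and 3.44 CPM at day 14 (log2 fold change 1.63 ± 0.30, edgeR adjusted p = 0.0383, and from 0.000111 to 0.178 over the alternatives). Ighm, the heavy chain of IgM, was at 0.866, 0.984, 1.08 and 0.845 CPM in the controls and 3.9, 2.4, 2.78 and 2.08 CPM at day 14. Ighm had a log2 fold change of 1.55 ± 0.29 (edgeR adjusted p = 0.0383). Both are genes of immune cells, low in the control tissue, and replicate 1 was the highest day 14 library in each. Hmgn3, which encodes a nucleosome-binding protein, was at 49.9, 46.2, 44.9 and 41.9 CPM in the controls and 128, 71.98, 103 and 69.7 CPM at day 14. Hmgn3 had a log2 fold change of 1.02 ± 0.18 (edgeR adjusted p = 0.0332). Med21, a subunit of the Mediator complex, and Rpl9-ps6 had log2 fold changes of 0.78 ± 0.14 and 0.88 ± 0.17. Rpl9-ps6 has the name of a ribosomal protein pseudogene and the deposited biotype of a protein-coding gene. Its reads could belong to Rpl9 or its copies. All 6 higher genes were also called at days 3 and 7 against the same controls, with medians of 1.43 and 1.32 on the log2 scale beside 1.29 at day 14. Of all tested genes, 6.96% were called higher at day 3 and 3.62% at day 7. The genes were chosen against these same controls, so nothing is read from the shared calls.

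**Figure D2:**
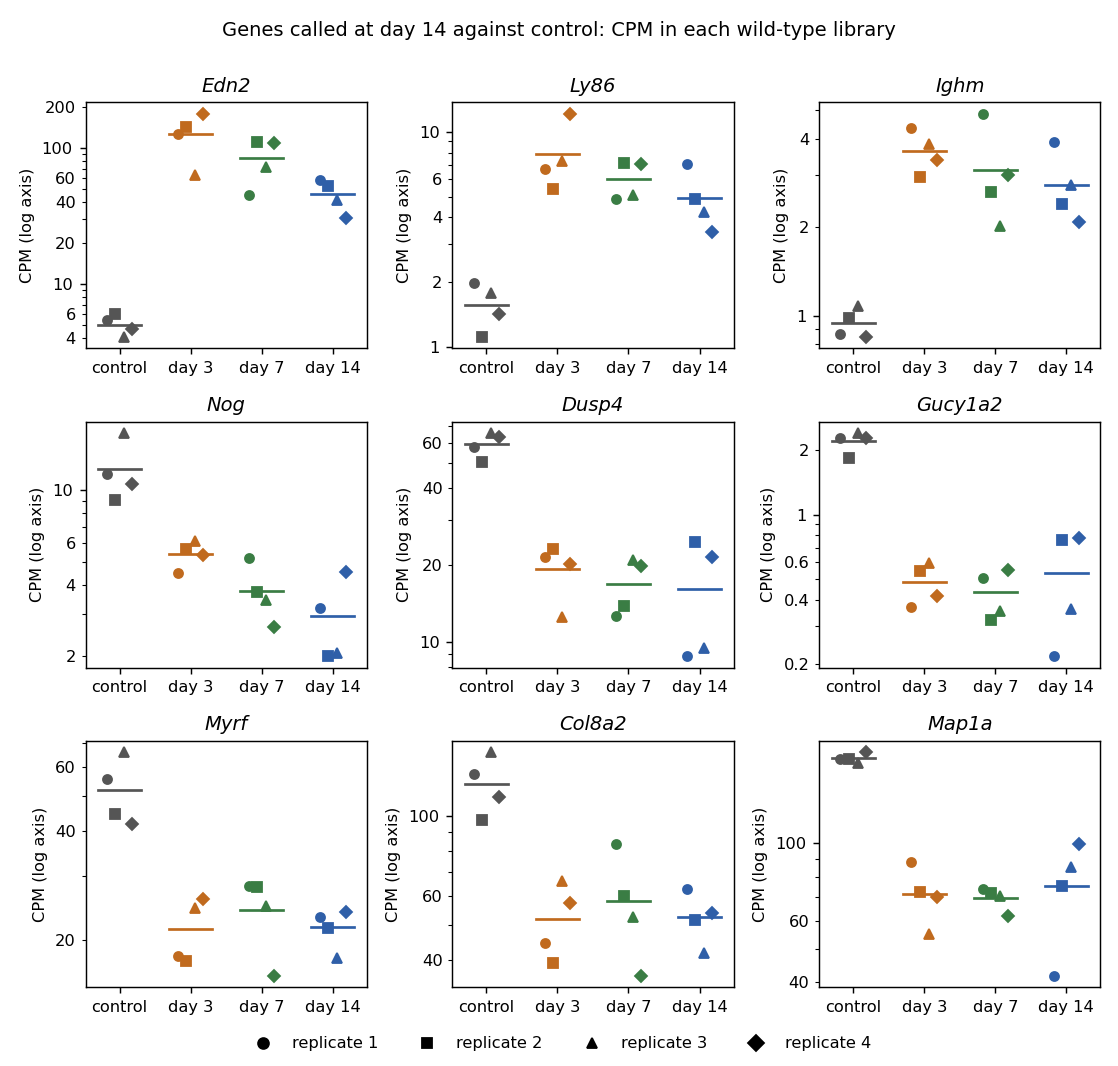
CPM (log axis) of 3 genes called higher and 6 called lower at day 14, in each of the 16 wild-type libraries by group; points are libraries, shapes are replicate numbers and bars are group means. For Edn2 the controls lie between 4.07 and 5.97 CPM and the day 14 libraries between 30.6 and 57.8 CPM, below the day 3 mean of 128 CPM, and for the lower genes the means of days 3, 7 and 14 all lie under the control mean.

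Of the 45 genes called lower, 12 were lower by at least 2-fold, and the log2 fold changes ran from -2.14 to -0.38. Nog encodes noggin, the secreted antagonist of bone morphogenetic proteins. It was at 11.8, 9.12, 17.5 and 10.7 CPM in the controls and 3.18, 1.99, 2.05 and 4.54 CPM at day 14. Nog had a log2 fold change of -2.06 ± 0.29 (edgeR adjusted p = 0.0202). It was the only one of 29 tested genes of TGF-beta and BMP signalling that was called. Dusp4, a phosphatase that switches off MAP kinases, was at 57.8, 50.8, 65.8 and 63.6 CPM in the controls and 8.81, 24.6, 9.48 and 21.5 CPM at day 14. Dusp4 had a log2 fold change of -1.88 ± 0.31 (edgeR adjusted p = 0.0297). Gucy1a2, a subunit of the soluble guanylate cyclase that senses nitric oxide, was at 2.29, 1.84, 2.41 and 2.27 CPM in the controls and 0.217, 0.762, 0.362 and 0.779 CPM at day 14. Gucy1a2 had a log2 fold change of -2.03 ± 0.34 (edgeR adjusted p = 0.0297). In these 2 genes, replicates 1 and 3 were the lowest day 14 libraries.

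Pcdhb2, a clustered protocadherin of neurons, had the most negative log2 fold change of all called genes, -2.14 ± 0.37, at 2.75 ± 0.184 CPM in the controls (SD, n = 4) and 0.618 ± 0.306 CPM at day 14. Shc3, an adaptor of neuronal receptor tyrosine kinases, was at 7.48 ± 1.06 and 2.03 ± 0.708 CPM (log2 fold change -1.88 ± 0.36). Map1a, the neuronal microtubule-associated protein, was at 174, 174, 169.5 and 182 CPM in the controls and 41.8, 75.4, 85.5 and 99.3 CPM at day 14. Map1a had a log2 fold change of -1.21 ± 0.20 (edgeR adjusted p = 0.0297). The control libraries of Map1a lay close together, and the day 14 libraries spread more widely, with replicate 1 the lowest. Among the called genes of other roles, Myrf, a membrane-bound transcription factor of oligodendrocytes that is also made in the pigment epithelium, was at 55.7, 44.5, 66.01 and 41.9 CPM in the controls and 23.2, 21.6, 17.8 and 23.9 CPM at day 14. Myrf had a log2 fold change of -1.27 ± 0.20 (edgeR adjusted p = 0.0267). Col8a2, a chain of the type VIII collagen of basement membranes, was at 131, 97.3, 149.8 and 113 CPM in the controls and 62.96, 51.6, 41.9 and 53.9 CPM at day 14. Col8a2 had a log2 fold change of -1.22 ± 0.23 (edgeR adjusted p = 0.0402). Slco1c1, a carrier of thyroid hormone at the blood-brain barrier, had a log2 fold change of -1.17 ± 0.22.

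The remaining genes called lower had smaller differences, and their known roles are varied. Kdm5c, which removes methyl groups from lysine 4 of histone H3, was at 186 ± 13.8 CPM in the controls and 97.7 ± 22.02 CPM at day 14 (log2 fold change -0.93 ± 0.16). Setd1b, which adds them, was at 92.4 ± 5.43 and 53.7 ± 10 CPM (-0.78 ± 0.13), and Tet3, which oxidises methylated cytosine, at 267 ± 10.8 and 177 ± 21.01 CPM (-0.59 ± 0.11). Jarid2, a partner of the Polycomb repressive complex, Phf2, a histone demethylase, and Hcfc1 had log2 fold changes of -0.52 ± 0.09, -0.51 ± 0.09 and -0.51 ± 0.09. Ago2, the slicer of RNA interference, was at 147 ± 7.31 and 83.6 ± 17.4 CPM (-0.81 ± 0.15), and Sfpq, a splicing factor, at 345 ± 10.1 and 218 ± 16.6 CPM (-0.66 ± 0.10). Hif1an, the asparagine hydroxylase that restrains HIF, had a log2 fold change of -0.49 ± 0.09, and Traf3, an adaptor that holds back noncanonical NF-kB signalling, one of -0.43 ± 0.08. No enrichment of any role was tested. All 45 lower genes also had a log2 fold change below 0 at days 3 and 7 against the same control libraries. There, 43 and 44 were called lower (7.76% and 6.9% of all tested genes were). The medians were -0.65 at day 3, -0.78 at day 7 and -0.67 at day 14. These genes were likewise chosen against these controls, so nothing is read from their shared calls.

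**Figure D3:**
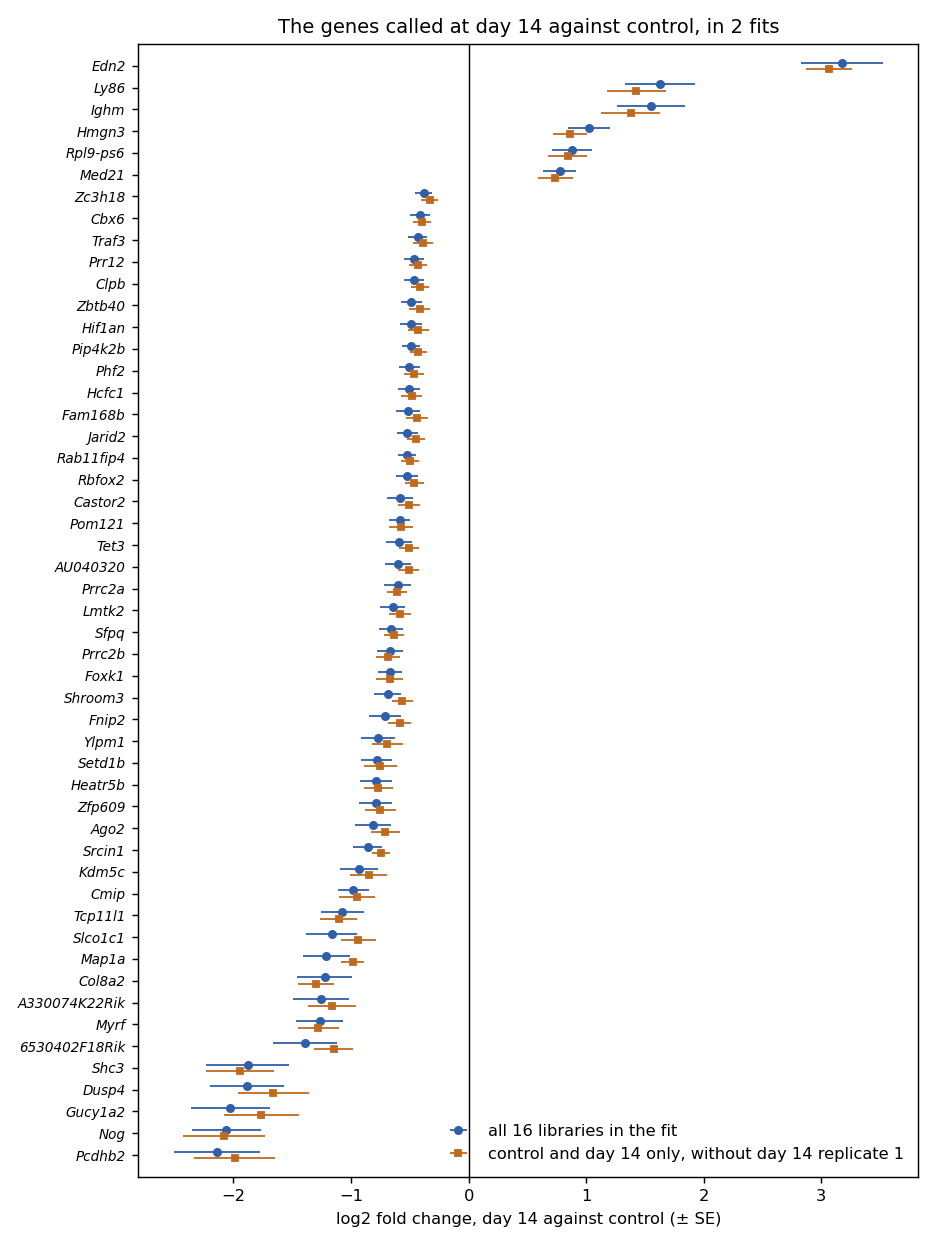
Log2 fold change of the 51 called genes at day 14 against control, with its SE, in the fit of all 16 wild-type libraries (circles) and in the fit of the control and day 14 libraries without day 14 replicate 1 (squares). All 51 lie on the same side of 0 in both fits, with Edn2 at 3.17 and 3.07 and Nog at -2.06 and -2.08. The groups do not overlap in any of the 51, so nothing is read from the shared side.

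The genes called lower were long. Their median exonic length as deposited was 7560 bases, against 1877.5 bases for the 6 called higher and 3762 bases for all tested genes. They were also more abundant: the median of their mean CPM was 74.5, against 16.7 for the 6 called higher and 18.1 for all tested genes. The tested genes as a whole also differed by length: from the shortest to the longest of 10 equal bins of the tested genes by length, the median log2 fold change at day 14 went from 0.23 to -0.22. The difference between the longest and the shortest bin was -0.451, -0.193, -0.759 and -0.235 in day 14 replicates 1 to 4 and between -0.057 and 0.053 in the controls (exact permutation test, two-sided p = 0.02857, adjusted over 5 library measures 0.04762, where 0.02857 is the smallest p that 4 against 4 allow). Of the 5 measures, the shares of lens genes (exact permutation p = 0.2, adjusted 0.2) and cornea genes (p = 0.1143, adjusted 0.1429) did not pass. The difference between the longest and the shortest bin was below every control in all 12 CNV libraries. Of 78 cytosolic ribosomal protein genes, which are short, 77 had a log2 fold change above 0, with a median of 0.76 and of 0.54 without day 14 replicate 1; none was called. With length in the fit as an offset, an alternative added after the data had been seen, 18 genes were called (0.0965%; 2 higher, 0.0107%, and 16 lower, 0.0858%), 17 of them among the 51. Edn2 was the 1 of these that was higher, and the lower ones included Nog, Dusp4, Gucy1a2, Pcdhb2, Cmip, Foxk1, Tcp11l1, Kdm5c, Setd1b, Ago2 and Sfpq. The other genes described above as called were not called in this fit. They were Ly86, Ighm, Hmgn3, Med21 and Rpl9-ps6 among the higher genes. Among the lower genes they were Shc3, Map1a, Myrf, Col8a2, Slco1c1, Tet3, Jarid2, Phf2, Hcfc1, Hif1an and Traf3. Whether library preparation, RNA quality or the tissue set the length pattern was not tested.

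Genes of reactive gliosis were mostly above control at day 14, and none passed the test in the 16-library fit. Of 20 genes, 19 had a log2 fold change above 0, with a median of 1 beside 0.04 over all tested genes, and none was called; without day 14 replicate 1 the median was 0.40. Gfap, the intermediate filament of activated Müller glia and astrocytes, was at 23.6, 19.3, 23.9 and 23.7 CPM in the controls and 85.3, 52.3, 33.6 and 40.5 CPM at day 14. Every day 14 library exceeded every control, and the log2 fold change was 1.23 ± 0.35 (edgeR adjusted p = 0.0826). In the 7-library fit Gfap was called at 0.92 ± 0.15 (adjusted p = 0.03), as were Lcn2, the secreted lipocalin of reactive glia and neutrophils, at 1.69 ± 0.32 and Mt2, a metallothionein, at 1.06 ± 0.15, against a background of 0.953%. A fit of 15 libraries kept days 3 and 7 and left out day 14 replicate 1. This 15-library fit did not call Gfap, Lcn2 or Mt2 (edgeR adjusted p = 0.168, 0.174 and 0.0873). Lcn2 was at 4.76, 5.18, 6.48 and 3.9 CPM in the controls and 38.99, 10.9, 25.4 and 11.9 CPM at day 14. Cebpd, a transcription factor of the acute phase, was not called (16.2, 11.9, 21.2 and 19.4 CPM in the controls and 66.8, 29.6, 32.2 and 20.5 CPM at day 14). Glul, the glutamine synthetase of resting Müller glia, was at 2602 ± 165 CPM in the controls and 2442 ± 205 CPM at day 14 (log2 fold change -0.09 ± 0.15, edgeR adjusted p = 0.719), and none of 14 tested Müller genes was called.

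Among 18 tested genes of neuron injury and stress, Edn2 alone was called in the 16-library fit, where 0.0322% of all tested genes were called higher. The 7-library fit called 4 of 17 higher, Edn2 among them, beside 0.953% of all tested genes. Fgf2, the survival factor that photoreceptors and glia make after injury, was at 20.7, 19.3, 23.3 and 21.2 CPM in the controls and 35.02, 48.9, 32.1 and 34.5 CPM at day 14. Fgf2 had a 7-library log2 fold change of 0.89 ± 0.15 (edgeR adjusted p = 0.03). Egr1, an immediate early transcription factor, was at 26.2, 20.99, 24.1 and 25.5 CPM in the controls and 42.7, 73.2, 64.03 and 39.3 CPM at day 14. Egr1 had a 7-library log2 fold change of 1.31 ± 0.19 (edgeR adjusted p = 0.03). Ecel1, a peptidase of damaged neurons, was at 0.186, 0.59, 0.445 and 0.52 CPM in the controls and 5.78, 10.7, 2.17 and 2.08 CPM at day 14. Ecel1 had a 7-library log2 fold change of 3.53 ± 0.71 (edgeR adjusted p = 0.045). The 15-library fit called Egr1 (edgeR adjusted p = 0.0359) and not Fgf2 or Ecel1 (0.159 and 0.149). The day 14 libraries of all 3 genes lay above every control, and those of Ecel1 differed the most among themselves. Atf3, a stress transcription factor that reached 29.6 ± 10.8 CPM at day 3, was at 8.98 ± 1.73 CPM at day 14 against 7.77 ± 1.31 CPM in the controls (log2 fold change 0.21 ± 0.33, edgeR adjusted p = 0.702).

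Complement genes and genes of microglia were mostly above control at day 14, and the ones named here were highest in replicate 1. The complement list had 20 of 21 tested genes above 0, with a median of 1.22 (0.42 without day 14 replicate 1), and none was called in the 16-library fit. C1qb, a chain of the C1q molecule that starts the classical pathway, was at 8.91, 6.49, 9.4 and 10.3 CPM in the controls and 60.5, 17.1, 20.3 and 15.6 CPM at day 14. C1qa was at 11.4, 9.51, 12.7 and 13.4 CPM in the controls and 67.1, 19.5, 20.7 and 19.01 CPM at day 14, and C1qc at 10.6, 8.07, 9.34 and 9.36 CPM in the controls and 52.3, 17.6, 15.7 and 14.5 CPM at day 14. In each of the 3 chains every day 14 library lay above every control, with replicate 1 far above the others and replicates 2 to 4 close together. In the 7-library fit their log2 fold changes were 0.77 ± 0.14, 1.04 ± 0.17 and 0.80 ± 0.14 (C1qa, C1qb and C1qc; edgeR adjusted p = 0.0315, 0.03 and 0.0313). C4b, the C4 component that glia also make, was at 25.4, 24.01, 26.6 and 25.5 CPM in the controls and 304, 54.2, 35.2 and 41.5 CPM at day 14, and was called at 0.81 ± 0.13 (edgeR adjusted p = 0.03). C3, the component on which the pathways meet, was at 6, 4.07, 6.16 and 3.44 CPM in the controls and 41.1, 5.92, 8.1 and 7.07 CPM at day 14 and was not called in either fit. In the 7-library fit 0.953% of all tested genes were called higher. The 15-library fit called none of C1qa, C1qb, C1qc and C4b (edgeR adjusted p = 0.106, 0.0558, 0.104 and 0.0763).

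Of 15 microglial genes, all 15 had a log2 fold change above 0, with a median of 1.24 and of 0.72 without day 14 replicate 1. Trem2, the lipid-sensing receptor of microglia, was at 1.79, 2.03, 3.05 and 2.86 CPM in the controls and 19.4, 5.92, 5.56 and 5.71 CPM at day 14. Its log2 fold change was 1.90 ± 0.41 with all 16 libraries (edgeR adjusted p = 0.0559) and 1.26 ± 0.23 in the 7-library fit (adjusted p = 0.0324). The signalling adaptors Tyrobp and Fcer1g, the beta-glucan receptor Clec7a, the tetraspanin Cd9 and the lysosomal protease Ctss were also called in that fit, at 0.88, 0.91, 1.30, 1.07 and 1.13. There, 0.953% of all tested genes were called higher. The 15-library fit called none of these genes, nor Trem2 (edgeR adjusted p from 0.0548 to 0.139). Cd9 was the most abundant of these, at 76.2, 57.99, 50.2 and 45.5 CPM in the controls and 218, 119, 133 and 104 CPM at day 14, and Clec7a the least, at 0.866, 0.853, 0.699 and 0.845 CPM in the controls and 9.46, 1.88, 1.81 and 2.27 CPM at day 14.

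**Figure D4:**
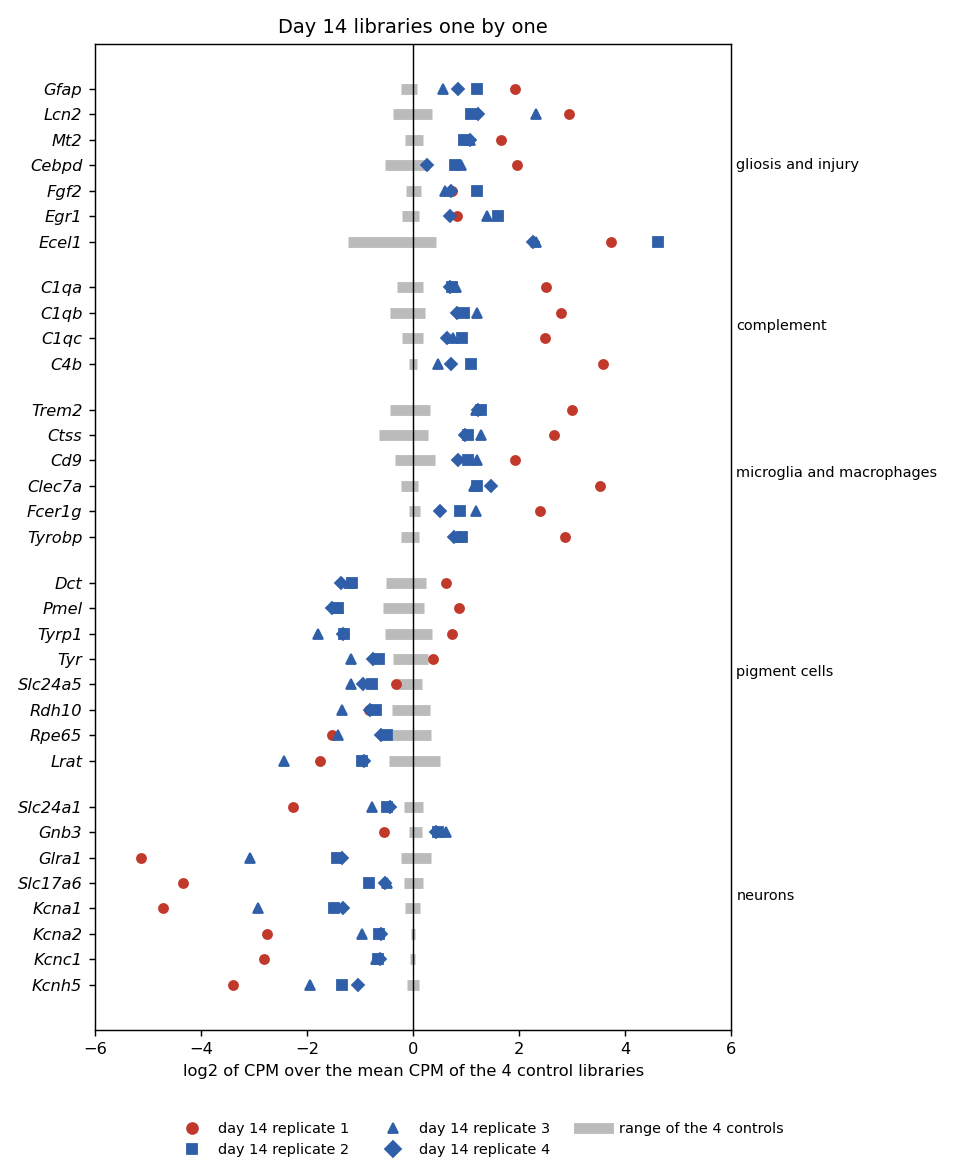
Log2 of the CPM in each day 14 library over the mean of the 4 controls, for genes of gliosis and injury, complement, microglia and macrophages, pigment cells and neurons; the grey bar is the range of the controls, red is day 14 replicate 1 and blue are replicates 2 to 4. For C4b replicate 1 is at 304 CPM and the others between 35.2 and 54.2 CPM; for Pmel replicate 1 is above the controls and replicates 2 to 4 are below them.

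Genes of pigment cells were mostly lower in day 14 replicates 2 to 4, and several were higher in replicate 1. Of 13 genes of melanin synthesis and melanosomes, 10 lay below every control in replicates 2 to 4, as did 16.5% of all tested genes. None of the 13 was called with all 16 libraries (median log2 fold change -0.43), and 7 were called lower in the 7-library fit (median -0.81 beside 0.03 over all tested genes, against a background of 2.26%): Dct, Gpnmb, Pmel, Slc24a5, Slc45a2, Tyr and Tyrp1. Pmel, which forms the fibrils of the melanosome, was at 117, 75.4, 128 and 125 CPM in the controls and 203, 41.9, 41.6 and 38.3 CPM at day 14. Dct, an enzyme of eumelanin synthesis, was at 279.7, 179.9, 305 and 261 CPM in the controls and 394, 115, 110.4 and 100 CPM at day 14. Replicates 2 to 4 lay below every control in both genes and replicate 1 above every control. The 7-library log2 fold changes were -1.43 ± 0.17 and -1.21 ± 0.17 (edgeR adjusted p = 0.03 and 0.03), against -0.45 and -0.51 with all libraries, and over 23 alternatives the adjusted p ranged from 0.00093 to 0.778 for Pmel and from 0.000858 to 0.597 for Dct. Tyrp1 and Tyr, the other enzymes of the pathway, were at -1.43 and -0.81 in the 7-library fit, and Slc24a5, an ion exchanger of melanosomes, at -0.92. The 15-library fit called Dct, Pmel and Tyrp1 (edgeR adjusted p = 0.0248 each) and not Tyr or Slc24a5 (0.0558 and 0.0525).

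The pigment epithelium list, which holds visual cycle genes, had 15 of 19 tested genes below 0 (median -0.48, and -0.50 without day 14 replicate 1). Rdh10, a retinol dehydrogenase, was at 179, 137, 223 and 179 CPM in the controls and 101, 111, 70.9 and 103 CPM at day 14, with no overlap (log2 fold change -0.90 ± 0.18, edgeR adjusted p = 0.0529; -0.90 ± 0.19 and 0.0497 in the 7-library fit). Rpe65 was at 76.9, 157, 82.7 and 146 CPM at day 14 and Lrat, which esterifies retinol, at 132, 102, 199 and 129 CPM in the controls and 41.4, 72.04, 25.98 and 73.6 CPM at day 14; neither was called in either fit. In Rdh10, Rpe65 and Lrat, day 14 replicate 1 was on the same side of the controls as the other day 14 libraries, as it was in Slc24a5 and unlike in Pmel, Dct, Tyrp1 and Tyr. Sox10, a factor of melanocytes and of oligodendrocytes, was at 18.5 ± 2.04 CPM in the controls and 9.76 ± 2.29 CPM at day 14, and was called in the 7-library fit at -1.03 ± 0.16. The 15-library fit called neither Rdh10 nor Sox10 (edgeR adjusted p = 0.0558 and 0.0579).

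Few photoreceptor genes passed the test, and the ones named here were lowest in day 14 replicate 1. Rod genes took 7.69% ± 0.354 of the counts in the controls and 5.63% ± 2.66 at day 14 (SD, n = 4; exact permutation test, two-sided p = 0.02857, adjusted 0.04762), with the highest day 14 library at 7.23% and the lowest control at 7.41%. All 21 rod genes had a log2 fold change below 0 with all libraries (median -0.46), and 16 of 21 did in the 7-library fit (median -0.18). Slc24a1, the exchanger that clears calcium from the rod outer segment, was the 1 rod gene called in the 7-library fit (1478, 1458, 1708 and 1321 CPM in the controls, 310, 1058, 871 and 1101 CPM at day 14, log2 fold change -0.54 ± 0.11). In that fit 2.26% of all tested genes were called lower. Gnb3, the G protein beta subunit of cones and ON bipolar cells, was at 346, 349.6, 343 and 409 CPM in the controls and 248, 499, 558 and 489 CPM at day 14. It was called higher in the 7-library fit (0.54 ± 0.09, edgeR adjusted p = 0.03), with replicate 1 below every control. The 15-library fit called neither Slc24a1 nor Gnb3 (edgeR adjusted p = 0.132 and 0.146).

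With all libraries, most tested bipolar, amacrine and ganglion cell genes had a log2 fold change below 0, and few passed a test. In the 7-library fit, 0.953% of all tested genes were called higher and 2.26% lower. Of 16 bipolar cell genes, 12 had a log2 fold change below 0 with all libraries (median -0.31) and 7 in the 7-library fit (median 0.06), which called Isl1, a homeodomain factor, higher. Of 17 amacrine cell genes, 14 were below 0 with all libraries (median -0.37) and 10 in the 7-library fit (median -0.04), which called Gad2, an enzyme of GABA synthesis, and Glra1 lower. All 16 genes of retinal ganglion cells had a log2 fold change below 0 (median -0.64, and -0.43 without day 14 replicate 1), with none called. Slc17a6, the vesicular glutamate transporter of ganglion cells, was at 53.3, 47.8, 45.5 and 58.8 CPM in the controls and 2.53, 28.8, 36.4 and 35.6 CPM at day 14, and was called in the 7-library fit at -0.58 ± 0.12. Glra1, a glycine receptor subunit, was at 4.52, 4.33, 6.42 and 5.07 CPM in the controls and 0.144, 1.88, 0.604 and 2.01 CPM at day 14 (-1.74 ± 0.36 in that fit, edgeR adjusted p = 0.0433). Of 25 potassium channel genes, which set how neurons repolarise, 23 lay below 0 with all libraries (median -0.54). In day 14 replicates 2 to 4, 14 of the 25 lay below every control, as did 16.5% of all tested genes. Among those called lower in the 7-library fit were Kcna1, Kcna2, Kcnc1 and Kcnh5. In each of these, replicate 1 was the lowest day 14 library. Kcna1 was at 13.8, 14.7, 13.02 and 12.02 CPM in the controls and 0.505, 4.75, 1.75 and 5.39 CPM at day 14 (log2 fold change -1.73 ± 0.32). Kcna2 was at 83.6, 85.01, 82.7 and 87.2 CPM in the controls and 12.6, 54.3, 43.7 and 56 CPM at day 14 (-0.70 ± 0.09, and called also in the 15-library fit without day 14 replicate 1, at -0.70 ± 0.13). The controls of Kcna2 lay close together, and each day 14 library lay below them, replicate 1 the furthest. Slit1, an axon guidance ligand, and Hk2, the hexokinase of photoreceptors, were at -1.02 ± 0.21 and -0.52 ± 0.09 in the 7-library fit. The 15-library fit called none of Slc17a6, Glra1, Kcna1, Kcnc1, Kcnh5, Slit1 and Hk2 (edgeR adjusted p from 0.0579 to 0.129).

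Genes of vessels and of angiogenic factors showed no rise that passed the test at day 14. None of 19 endothelial genes was called in either fit. Their median was 0.31 with all libraries and -0.21 in the 7-library fit, so its direction turned on day 14 replicate 1. Control replicate 4, tagged as laser-treated, had the highest endothelial share of counts among the controls (0.045%, the others 0.0301% to 0.0341%). Pecam1 was at 13.2, 11.5, 8.7 and 7.79 CPM at day 14. Pecam1 had a log2 fold change of 0.35 ± 0.25 (edgeR adjusted p = 0.381). Vegfa, the main driver of vessel growth, was at 194, 209.7, 198 and 226 CPM in the controls and 102, 174, 153 and 188 CPM at day 14, below every control and not called (log2 fold change -0.42 ± 0.16, edgeR adjusted p = 0.132). Its co-receptors Nrp1 and Nrp2 were called lower in the 7-library fit, at -0.88 ± 0.19 and -0.51 ± 0.11, against a background of 2.26%. Neither was called with all libraries (edgeR adjusted p = 0.253 and 0.0763), nor in the 15-library fit without day 14 replicate 1 (0.105 and 0.105). Nrp1 was at 7.36, 7.35, 8.96 and 7.67 CPM in the controls and 8.66, 4.69, 3.14 and 4.74 CPM at day 14. Its replicate 1 thus lay within the controls. Nrp2 was at 23.7, 24.01, 26.5 and 28.5 CPM in the controls and 17.3, 19.2, 17.1 and 16.8 CPM at day 14.

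Of 31 tested genes of matrix and fibrosis, 28 had a log2 fold change above 0, with a median of 0.99 and of 0.26 without day 14 replicate 1, and none was called with all libraries. Lox, the enzyme that cross-links collagen and elastin, was at 0.68, 0.459, 1.08 and 0.52 CPM in the controls and 6.43, 2.35, 2.42 and 2.47 CPM at day 14, and was called in the 7-library fit (1.82 ± 0.32, edgeR adjusted p = 0.0313). Mmp12, the macrophage elastase, was at 0.742, 0.328, 1.33 and 0.91 CPM in the controls and 10.5, 2.46, 1.87 and 3.12 CPM at day 14 and was not called. Col18a1, the basement membrane collagen from which endostatin is cut, was at 105, 105, 122 and 93.9 CPM in the controls and 357, 77.1, 44.6 and 58.7 CPM at day 14. Replicate 1 was above and replicates 2 to 4 below every control, and the log2 fold change was 0.33 ± 0.47 with all libraries and -0.80 ± 0.17 in the 7-library fit, where it was called (edgeR adjusted p = 0.0484). The 15-library fit called Col18a1 (edgeR adjusted p = 0.0445) and not Lox (0.0804).

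The time course was collected to follow genes of natural killer cells, and few of these passed the filter on low counts. Of 31 natural killer cell genes, 5 passed that filter and none was called. The 31 together took 0.00167% ± 0.000352 of the counts in the controls and 0.00218% ± 0.000629 at day 14 (SD, n = 4). None of 7 tested T cell genes was called with all libraries, nor was any of 8 tested neutrophil genes. In the 7-library fit 2 of 6 neutrophil genes were called higher, beside 0.953% of all tested genes: Lcn2 and Csf3r, the receptor of the growth factor G-CSF. Csf3r was at 0.742, 0.656, 0.699 and 0.845 CPM in the controls and 4.48, 1.7, 1.39 and 2.01 CPM at day 14. Jchain, which joins polymeric immunoglobulin, was called with Ighm in that fit (13.8, 16.8, 14.6 and 14.2 CPM in the controls, 10.7, 27.8, 26.2 and 20.5 CPM at day 14, 0.77 ± 0.13), with replicate 1 below every control. Of 26 genes of the type I interferon response and 24 of proliferation, none was called in either fit, with medians of 0.60 and 0.65 that were 0.11 and 0.35 without day 14 replicate 1. The 15-library fit called none of Lcn2, Csf3r, Jchain and Ighm (edgeR adjusted p = 0.174, 0.286, 0.0583 and 0.0548).

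Transcripts of the mitochondrial genome took 4.08% ± 0.189 of the counts at day 14 and 3.01% ± 0.2 in the controls (SD, n = 4; exact permutation test, two-sided p = 0.02857, adjusted 0.04762). No mitochondrial gene was called with all libraries, and 7 of 15 were called higher in the 7-library fit, where 0.953% of all tested genes were. These included mt-Rnr1, the small ribosomal RNA, at 289, 266, 269 and 256 CPM in the controls and 353, 486, 547 and 394 CPM at day 14 (0.84 ± 0.11), and mt-Co3, a subunit of cytochrome oxidase, at 33.9, 28.7, 32.5 and 28.5 CPM in the controls and 58.8, 49.8, 64.2 and 46.7 CPM at day 14 (0.82 ± 0.13). Every day 14 library, replicate 1 included, exceeded every control in both. The 15-library fit called mt-Rnr1 (edgeR adjusted p = 0.0248) and not mt-Co3 (0.0841). Measures of RNA quality were not used here, and its part in the mitochondrial share was not tested.

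**Figure D5:**
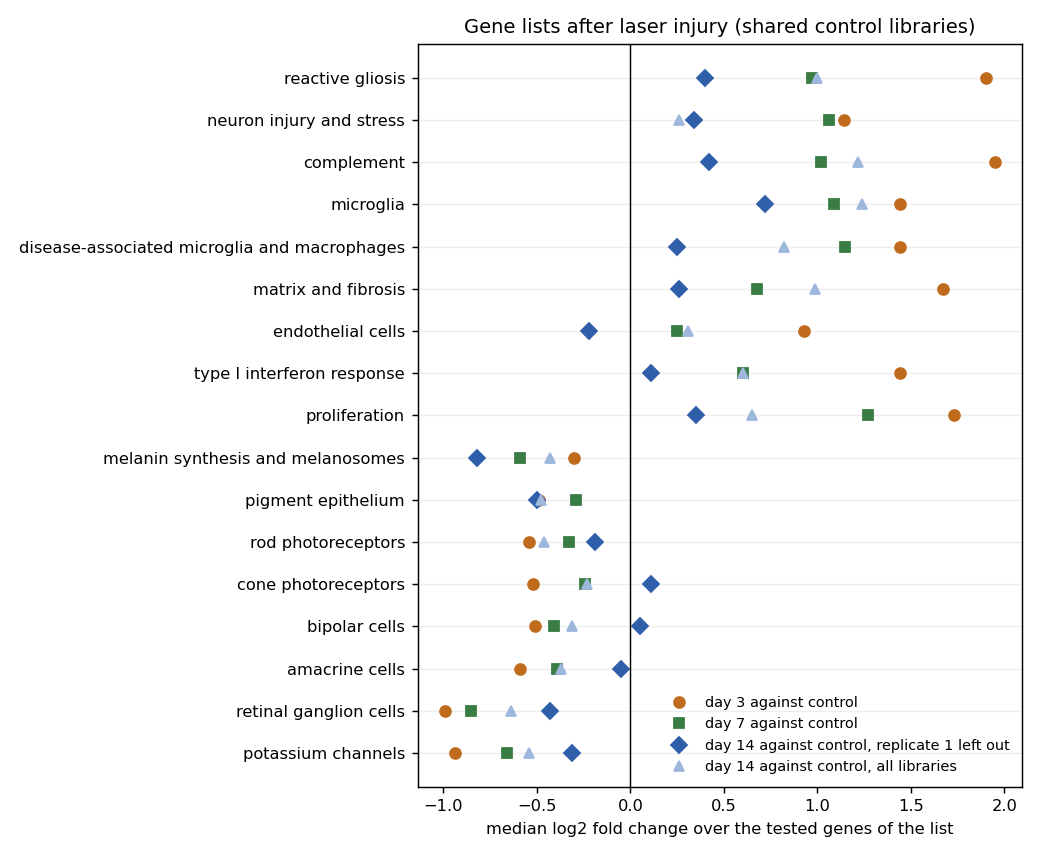
Median log2 fold change over the tested genes of 17 gene lists, at days 3, 7 and 14 against the same 4 control libraries, in the fit without day 14 replicate 1, and at day 14 with all libraries. For reactive gliosis the medians are 1.90, 0.97 and 0.40, and for retinal ganglion cells -0.99, -0.85 and -0.43; the comparisons share their controls and are not independent.

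Against day 3, the libraries of day 14 differed in 1 called gene when replicate 1 was kept (0.00536% of 18657; 1263 genes at an unadjusted p under 0.05) and in 1290 of 18919 (6.82%) when it was left out, 586 higher (3.10%) and 704 lower (3.72%). The 1 gene was Tnip2, which binds A20 and restrains NF-kB signalling: it was at 52.96, 64.6, 48.6 and 63.5 CPM in day 3 replicates 1 to 4 and 32.8, 35.05, 29.5 and 34.1 CPM at day 14 (log2 difference -0.81 ± 0.11, edgeR adjusted p = 0.0332), with the controls at 39.2 ± 1.25 CPM. Without day 14 replicate 1, 13 of 20 gliosis genes were lower than at day 3 (median -1.28 beside 0.01 over all tested genes), with log2 differences of -1.61 ± 0.36 for Gfap, -2.51 ± 0.65 for Lcn2 and, for Cebpd, -1.77 ± 0.26. So were 10 of 21 complement genes (median -1.17), with C4b at -1.69 ± 0.22 and C3 at -2.82 ± 0.69. Of the matrix genes 9 of 31 were lower, with Lox at -2.38 ± 0.45 and Mmp12 at -2.79 ± 0.43, and of the endothelial genes 6 of 19. Higher than at day 3 were 7 of 16 bipolar cell genes, 5 of 16 ganglion cell genes, 4 of 14 cone genes and 10 of 25 potassium channel genes, with Kcna2 at 0.73 ± 0.13. Glul was also higher, by 0.58 ± 0.14. None of 21 rod genes was called, although all 21 had a difference above 0 (median 0.44). Lens genes took 3.31% to 6.41% of the counts at day 3 and 0.0902% to 2.61% in day 14 replicates 2 to 4; their part in these differences was not tested.

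Against day 7, no gene was called by edgeR with all libraries (621 at an unadjusted p under 0.05) or without day 14 replicate 1 (1732), and none by DESeq2. Of the gliosis genes 18 of 20 and of the proliferation genes 22 of 24 were below their day 7 level without day 14 replicate 1, with medians of -0.43 and -0.85, and all 16 ganglion cell genes and all 25 potassium channel genes were above it, with medians of 0.49 and 0.40. No single gene of these lists passed the threshold, and no share over all tested genes was set beside these counts. With replicate 1 kept, the mean log2 CPM of the ganglion cell genes was 4.04 at day 14, below the 4.14 of day 7. That of the potassium channel genes was 4.63 at day 14 and 4.55 at day 7.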

How the data were processed

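Total RNA of mouse retina and choroid was sequenced, and the authors deposited raw read counts for 54532 genes in 1 wild-type table. The submitters' processing notes name featureCounts 1.5.0-p3 and mm10; the aligner is not given in the sources used here. The counts of 16 wild-type libraries (control and CNV days 3, 7 and 14, 4 each) were used, and 28 other per-sample columns were not. Genes were kept by filterByExpr (minimum count 10, minimum total 15), scaled by TMM and fitted together with edgeR 4.0.16 (robust quasi-likelihood) in R 4.3.3, with group as the only term and no block. A call is a Benjamini-Hochberg adjusted p under 0.05 over all genes tested, and ± after a log2 fold change is its SE. CPM values use TMM-scaled library sizes unless a share of counts is given. Library measures were compared by exact two-sided permutation tests. Limma 3.58.1 (voom) and DESeq2 1.42.0 served as alternatives, beside other scalings, filters, covariates and left-out libraries. Scripts were tested on simulated counts. Results for some genes are not reported here.

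The members and the 39 gene lists (735 symbols, 730 matched) were chosen with earlier results of these data known. Genes to name were, by rule, the 15 largest rises and falls that stayed called without each library in doubt, at 1 CPM or more, for each list its 3 members of smallest p, and the 10 largest calls against days 3 and 7. Promoters are RefSeq windows; 32 of the 51 called genes had an entry, too few to test a promoter property.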

Additional observations from a re-analysis of the deposited data

Results flagged for a closer look

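Of 172 groups of 4 libraries examined for 1 value lying far from the other 3, 22 were flagged, and chance flags about 1 in 20 such groups. Day 14 replicate 1 accounted for 18 of them. It was high for the complement genes C1qa (67.1 CPM), C1qb (60.5 CPM), C1qc (52.3 CPM), C4b (303.8 CPM) and C3 (41.1 CPM), and for the microglial and macrophage genes Trem2 (19.4 CPM), Ctss (91.1 CPM), Clec7a (9.46 CPM), Tyrobp (22.2 CPM) and Mmp12 (10.5 CPM). The same library was high for the pigment genes Dct (393.5 CPM), Pmel (203.4 CPM) and Tyrp1 (159.1 CPM), for the matrix genes Lox (6.43 CPM) and Col18a1 (356.8 CPM), and for Mt2 (14.4 CPM). It was low for the potassium channel gene Kcnc1 (21.4 CPM) and for the share of counts from rod genes (1.67%). These values share 1 library and are not independent of each other.

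Among the controls, replicate 2 was low for Rpl9-ps6 (11.2 CPM) and Gfap (19.3 CPM), replicate 3 was low for Clec7a (0.699 CPM), and replicate 4 was high for Gnb3 (408.6 CPM). Tnip2 was flagged because its level at day 14 differed from that at day 3 by a test of the difference itself, with a log2 difference of -0.80.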

How the results depend on the processing

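All 51 genes called at day 14 against control kept their direction in the 23 alternatives, which genes without overlap between the groups could hardly fail to do. Edn2 stayed called in 22 of the alternatives. The number called (in all, higher, lower) was 6, 2 and 4 with library totals, 26, 3 and 23 without a filter on low counts, 1, 1 and 0 with only the compared groups, 1801, 836 and 965 with DESeq2, 101, 13 and 88 with voom, 3325, 1274 and 2051 with voom and sample quality weights, and 105, 25 and 80 with scores of lens and cornea genes in the model. It was 0, 0 and 0 with control replicate 4 and day 14 replicate 1 both left out, 577, 171 and 406 with only the compared groups and day 14 replicate 1 left out, and 1, 1 and 0 when control replicate 4 was left out of that fit too. With a length offset it was 18, 2 and 16, with that offset in the 7-library fit 625, 216 and 409, and with it in the fit without day 14 replicate 1 25 were called lower. Leaving out 1 library at a time gave 1 to 159 in all, 1 to 68 higher and 0 to 91 lower. Against day 3 the number called was 4 with library totals, 2 without a filter, 0 with only the compared groups, 115 with DESeq2, 3 with voom, 4485 with voom and quality weights, 106 with the lens and cornea scores, 1056 with both libraries left out, 4 with the length offset, 1674 with that offset and without day 14 replicate 1, and 0 to 1290 leaving out 1 library. Against day 7 it was 0 in every alternative run.

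The cause of these shifts was not tested. The log2 fold change of C3 became -0.07 with these scores. That of Col18a1 became -0.20 with voom, -0.76 with quality weights, -0.02 with the replicate block, -0.90 with these scores, -0.86 with both libraries left out (and in the 6-library fit), -0.80 in the 7-library fit, and -0.71 and -0.72 with the length offset in the 7- and 15-library fits, and ranged from -0.81 (without day 14 replicate 1) to 0.62 when 1 library was left out. The median over all genes moved by less than 0.1 between scalings. Whether same-numbered libraries pair could not be decided from so few correlations. The correlation of day 14 with control deviations was 0.193, 0.11, -0.164 and 0.198 for replicates 1 to 4. Day 14 replicates 2, 3 and 4 correlated best with control replicate 4, and replicate 1 with control replicate 1. With same-numbered libraries of days 3 and 7 the correlation ran from -0.37 to 0.533. With the number as a replicate block, 2 genes were called, 2 higher and 0 lower, and 0 against day 3. At 15033983 counts or more per library, the 26 natural killer genes that failed the filter were tested only in the fit without a filter, where the 26 genes called were all among the 51.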
